A study of Mus musculus with 10 samples.

Results

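The effector cytokine loci comprise the genes Il4, Il13, Il5, Ifng, Il17a, Il17f, Il21, Il2 and Tnf, together with Rad50, the DNA repair gene that lies between Il13 and Il5. To ask how closed these loci are in regulatory T cells (Tregs), and whether loss of the lipid kinase Vps34 changes them, every accessible region (peak) that touched the body of a member or 10 kb on either side was taken. These were 34 of the 97385 peaks in the table, and all 34 held enough counts to be among the 97109 peaks tested. Chromatin was profiled by ATAC-seq, in which a transposase cuts and tags accessible DNA, in 10 libraries of bulk Tregs that were sorted as CD4+Foxp3-YFP+TCRb+ cells from 10-day-old mice. Vps34-deficient mice were Foxp3CrePik3c3fl/fl. Controls carried Foxp3Cre with Pik3c3+/+ or Pik3c3+/fl, so all groups carried the Cre and some control mice may have had 1 floxed copy. Control Tregs gave 2 libraries from spleen and 2 from lung, and Vps34-deficient Tregs gave 4 from spleen and 2 from lung. These numbers follow the sample labels, which match the column names of the deposited table, while in the published methods the numbers of the 2 spleen groups are exchanged. The Cre is driven by Foxp3 and deletes Pik3c3, the gene for Vps34, in the Treg lineage. The labels do not say that each library came from a separate mouse, so p-values measure only the spread between these libraries. Peaks of chromosome Y summed to 56.9 and 7.03 CPM (counts per 1000000 counts of the library) in spleen controls, 67.6 and 12.8 in lung controls, 21.4 and 63.4 in Vps34-deficient lung and 9.88, 64.8, 7.67 and 58.2 in Vps34-deficient spleen, so no group was a set of technical repeats of 1 mouse.

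Conventional helper T cells are classed by the cytokines they make. IFN-γ marks type 1 cells, IL-4, IL-5 and IL-13 mark type 2 cells, and IL-17A and IL-17F mark type 17 cells. IL-2 is the T cell growth factor that Tregs consume but produce little of, IL-21 acts on B cells and other lymphocytes, and TNF is a broad inflammatory cytokine. In the mouse the type 2 cytokine genes form a cluster with Rad50, whose 3′ introns hold a locus control region for the neighbouring cytokines. Accessibility at such elements is a feature of chromatin and is not a measure of cytokine expression.

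The sequences of 7 windows of 300 bases, in peaks that carry the main differences, are given from the RefSeq GRCm38.p6 assembly, 5′ to 3′ on the strand of the named gene. They are shown because the peak with the smallest adjusted p for genotype is built from a repeat, and because the others are the regions whose differences are described by locus. For Il17a, capitals mark 1 copy of the repeated unit of 17 bases. Elsewhere capitals mark matches on either strand to the letters TGANTCA for AP-1 factors, GGTGTGA for T-box factors or AGATAA for GATA factors.

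Il17a, 13.2 kb downstream of the start (chr1:20743908-20744207, plus strand): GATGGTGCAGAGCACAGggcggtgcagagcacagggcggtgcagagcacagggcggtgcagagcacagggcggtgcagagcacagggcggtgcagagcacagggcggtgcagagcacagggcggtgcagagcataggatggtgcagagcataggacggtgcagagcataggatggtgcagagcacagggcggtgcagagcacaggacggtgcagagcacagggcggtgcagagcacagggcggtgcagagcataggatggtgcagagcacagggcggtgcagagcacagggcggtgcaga

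Rad50 intron, 44.1 kb downstream of the start (chr11:53663078-53663377, minus strand): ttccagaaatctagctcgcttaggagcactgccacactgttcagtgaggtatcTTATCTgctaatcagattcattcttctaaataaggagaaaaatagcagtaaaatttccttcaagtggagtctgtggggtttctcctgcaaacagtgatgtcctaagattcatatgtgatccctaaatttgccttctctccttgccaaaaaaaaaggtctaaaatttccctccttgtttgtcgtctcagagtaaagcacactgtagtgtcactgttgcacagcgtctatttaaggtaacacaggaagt

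Rad50 intron, 50.3 kb downstream of the start (chr11:53656824-53657123, minus strand): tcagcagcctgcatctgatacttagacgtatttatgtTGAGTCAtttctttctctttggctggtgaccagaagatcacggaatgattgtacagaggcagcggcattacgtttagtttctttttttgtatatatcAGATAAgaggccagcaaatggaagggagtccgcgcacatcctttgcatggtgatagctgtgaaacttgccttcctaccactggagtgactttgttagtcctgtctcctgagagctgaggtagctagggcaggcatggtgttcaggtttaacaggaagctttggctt

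Il5, 743 bp upstream (chr11:53719738-53720037, plus strand): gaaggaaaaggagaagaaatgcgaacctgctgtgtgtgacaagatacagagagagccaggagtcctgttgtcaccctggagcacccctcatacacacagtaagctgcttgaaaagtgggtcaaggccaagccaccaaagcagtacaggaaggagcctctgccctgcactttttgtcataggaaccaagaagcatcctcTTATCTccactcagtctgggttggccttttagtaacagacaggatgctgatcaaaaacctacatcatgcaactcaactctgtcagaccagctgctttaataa

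Ifng, 5.38 kb upstream (chr10:118435513-118435812, plus strand): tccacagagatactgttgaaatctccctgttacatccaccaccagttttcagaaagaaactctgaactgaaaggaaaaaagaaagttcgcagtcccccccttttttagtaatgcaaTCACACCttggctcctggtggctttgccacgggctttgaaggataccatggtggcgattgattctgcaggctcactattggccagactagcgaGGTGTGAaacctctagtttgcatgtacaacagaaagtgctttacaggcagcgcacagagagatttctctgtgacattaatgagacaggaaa

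Ifng, bases just upstream of the start (chr10:118440746-118441045, plus strand): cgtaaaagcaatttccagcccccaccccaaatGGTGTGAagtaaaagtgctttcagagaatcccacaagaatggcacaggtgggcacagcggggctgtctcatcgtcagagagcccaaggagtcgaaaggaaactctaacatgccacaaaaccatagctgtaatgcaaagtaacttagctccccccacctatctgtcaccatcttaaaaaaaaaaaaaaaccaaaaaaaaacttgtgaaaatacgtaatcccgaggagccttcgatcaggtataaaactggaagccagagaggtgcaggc

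Il2, bases just upstream of the start (chr3:37125960-37126259, minus strand): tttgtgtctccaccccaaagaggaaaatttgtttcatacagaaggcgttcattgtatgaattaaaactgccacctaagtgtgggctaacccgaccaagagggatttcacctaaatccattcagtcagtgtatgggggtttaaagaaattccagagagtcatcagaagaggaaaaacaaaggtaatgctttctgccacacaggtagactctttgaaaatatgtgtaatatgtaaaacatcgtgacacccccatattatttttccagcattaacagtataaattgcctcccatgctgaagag

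In the Il17a window, 93.6% of bases were equal to the base 17 positions on. Of all peaks on assembled chromosomes, 0.0566% (55 of 97250) were this repetitive (at least 80% equal at any period of 2 to 60 bases), and no other peak of the cytokine loci was. How reads were placed on the copies of this repeat was not tested. Among the 34 peaks, the central 300 bases held AP-1 letters in 3 peaks (8.82%, against 13.0% of all peaks), T-box letters in 4 (11.8%, against 4.84%) and GATA letters in 9 (26.5%, against 15.1%). Both T-box matches of the region 5.38 kb upstream of Ifng are in the sequence printed above, and the sequence just upstream of the Ifng start holds another match. The letters TTCNNNGAA (STAT) were in 9 peaks (26.5%, against 9.29%), TGGAAA (NFAT) in 10 (29.4%, against 24.0%), AGGTCA (a nuclear receptor motif) in 4 (11.8%, against 16.8%) and TGTGGTT (RUNX) in 2 (5.88%, against 10.8%). Both strands were searched, and the motif letters may overlap each other. These are matches of letters and not measured binding sites.

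Total counts per library were 9405823 to 22439699, with the lung libraries among the shallowest. Counts at the 34 peaks ran from 0 to 701 per library, so the lowest peaks rest on few reads. At the start of Pik3c3 itself the peak had 52.5 to 67.3 CPM in the 10 libraries, and 0 of the 6 peaks of that gene passed the edgeR genotype test in either tissue (0 by DESeq2 and 0 at an unadjusted p below 0.05). Whether the deleted exons hold a peak is not stated, so this does not check the deletion. Starts of 6 of 7 T cell and Treg marker genes lay in a peak, and the summed peaks of these markers had 1277 to 1388 CPM in spleen controls, 1231 to 1413 in Vps34-deficient spleen, 1177 to 1511 in lung controls and 1097 to 1277 in Vps34-deficient lung. Of their 121 peaks, 0 passed for genotype in spleen by edgeR, against 1.46% of all peaks, and DESeq2 called 1 higher and 1 lower. An unadjusted p below 0.05 in spleen was found at 13 (10.7%, against 14.3% of all peaks). In lung 0 rose and 8 fell (6.61%, against 4.96% of all peaks, and 0 higher and 6 lower by DESeq2), where the median log2 fold change was -0.18.

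The cytokine loci were neither closed throughout nor open as a group. To compare peaks of different width, CPM was divided by peak length in kb and averaged over the 10 libraries. The 22 peaks more than 1 kb from any transcription start had a median of 9.40 CPM per kb, against 8.07 for all 77367 such peaks. Of these 22, 10 lay below 8.07, and none of the 10 was in the Tnf window. Such peaks of the Tnf window had 20.7 to 61.8 CPM per kb. Without them the median fell below 8.07, a split chosen after the values were seen. The 12 peaks near a start had a median of 10.5 CPM per kb, against 22.2 for all 20018 peaks near a start. Of these 12, 9 lay below that median, and these were all 9 peaks near member starts, with 4.24 (Il21) to 18.9 (Ifng) CPM per kb. The 3 above it lie near the starts of Ltb and Lta, neighbours of Tnf that are not members. Of the 34 peaks, 17 lay below the median of all peaks (9.32 CPM per kb), and their percentiles ran from 4.54 to 94.4.

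Peaks ranged widely within single loci. Percentiles ran from 4.54 to 73.3 at Rad50, from 4.98 to 73.2 at Ifng and from 6.16 to 67.0 at Il21. The 9 peaks of the Tnf window had a median of 24.0 CPM per kb, and the lowest of them had 14.2. This window also holds the neighbouring lymphotoxin genes Ltb and Lta, at whose starts 3 of its peaks lie. Without the Tnf window, 17 of the remaining 25 peaks were below the median of all peaks and their own median was 7.14 CPM per kb, a split chosen after the values were seen. The peak with the highest level outside the Tnf window was the Il17a repeat region at 29.3 CPM per kb (83.5th percentile), followed by the Il17a region 9.81 kb downstream of the start at 20.2 (74.9th percentile). The lowest were a Rad50 intron peak at 3.48, the Ifng region 5.38 kb upstream at 3.55 and an Il21 intron peak at 3.71 CPM per kb.

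**Figure D1:**
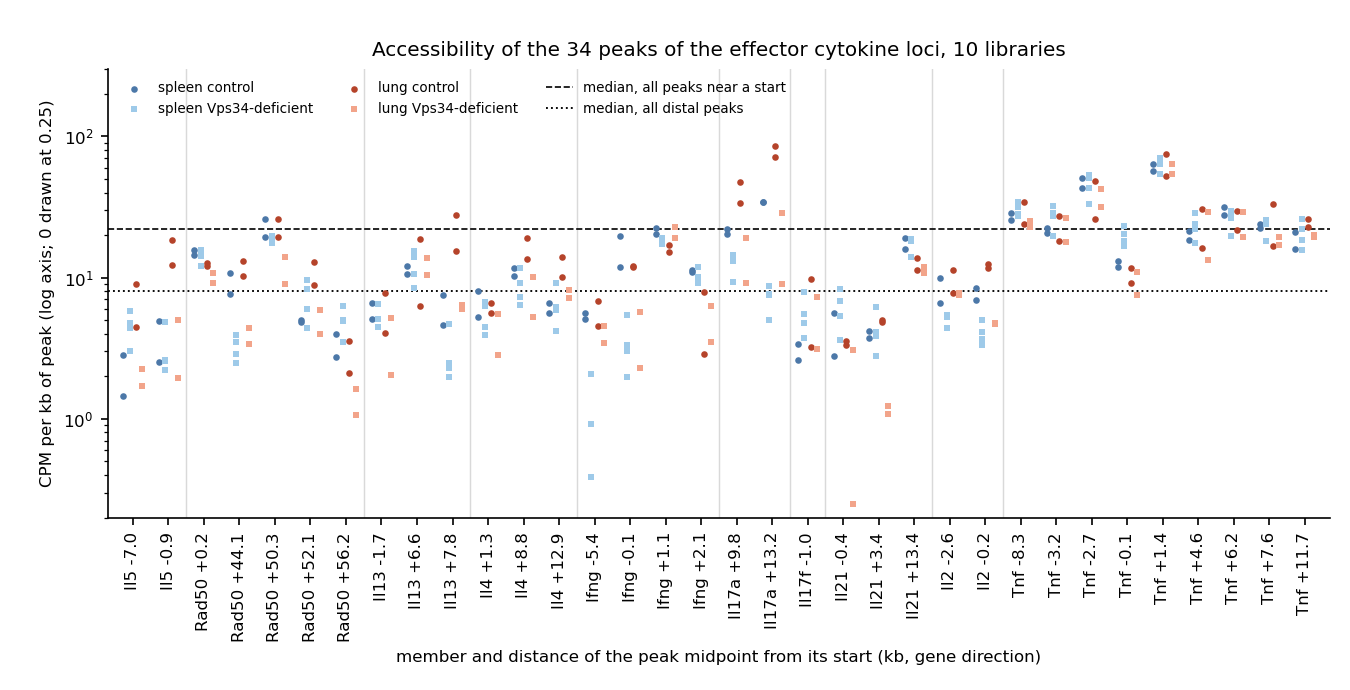
Accessibility of the 34 peaks in CPM per kb of peak on a log axis, 1 point per library, coloured by group and ordered by member and by distance from its start. The dashed line is the median of all peaks near a start (22.2) and the dotted line that of all distal peaks (8.07). All Tnf window peaks have a mean of at least 14.2, whereas most peaks of the other loci lie near or below the dotted line.

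The starts of Rad50, Ifng, Il2 and Tnf lay in a peak, which is 4 of 10, against 51.2% of 21924 protein-coding genes. The nearest peak was 220 bp from the start of Il21, 743 bp from Il5, 906 bp from Il17f, 1104 bp from Il4 and 1402 bp from Il13. At Il17a it was 9516 bp away. At Il4 a peak covered the start of a shorter annotated transcript inside the gene.

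As a measure per locus, the CPM of all peaks in a window was summed and divided by the window length. Tnf had 4.63 CPM per kb of window (96.5th percentile of protein-coding genes) and Il17a 1.22 (66.7th percentile). Ifng (0.617) and Il4 (0.557) lay at the 50.1st and 48.2nd percentiles, and Il13 (0.441) and Rad50 (0.416) at the 44.4th and 43.7th. The lowest were Il2 (0.295, 39.1st), Il21 (0.284, 38.7th), Il5 (0.124, 31.2nd) and Il17f (0.0401, 23.8th). Over all 10 windows together the level was 0.741 CPM per kb of window, and it was 0.425 without that of Tnf. The median of single gene windows was 0.614. No member window was without a peak, whereas 19.6% of all gene windows were. The median percentile was 44.0 for the cytokine loci. It was 85.8 for T cell and Treg markers, 87.8 for receptors of these cytokines, 74.6 for their regulators, 71.5 for other T cell cytokines and 30.8 for 12 genes of unrelated tissues such as Alb and Myh7. Markers of other cell types had medians of 46.7 (lung epithelium and endothelium), 42.8 (CD8 and NK cells), 40.8 (B cells), 28.8 (myeloid cells) and 0 (mast cells and basophils, with 3 of 4 genes without a peak), over 4 genes each. The median of the cytokine loci thus lay near those of 3 of these 5 lists, above those of the other two, above that of unrelated tissues, and below that of the T cell and Treg markers. Among the members, Tnf lay above the median of the T cell and Treg markers and Il17f below that of unrelated tissues.

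**Figure D2:**
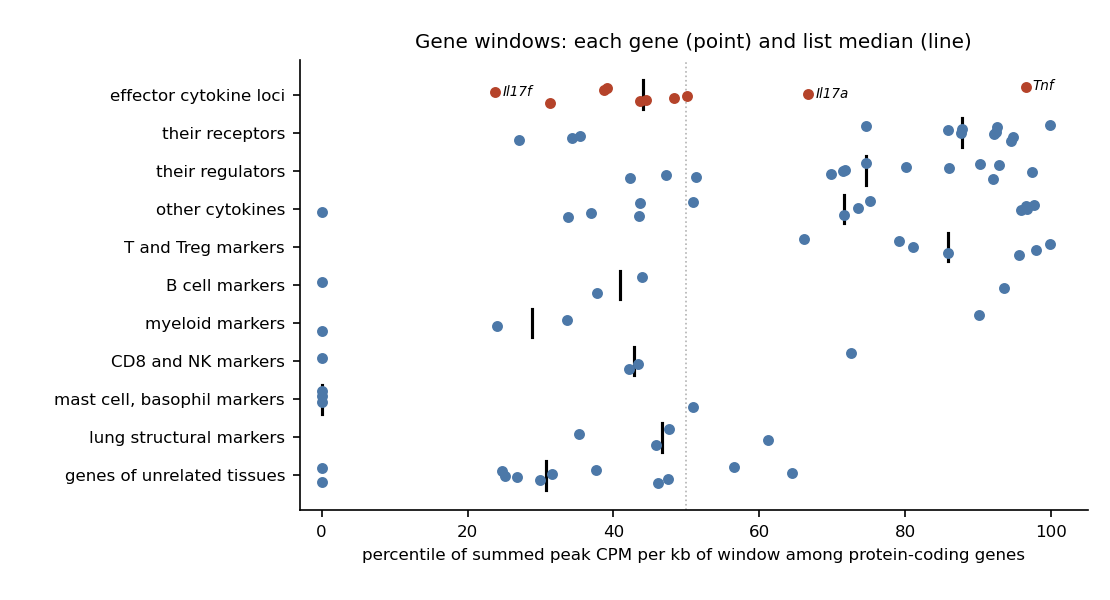
Percentile, among protein-coding genes, of summed peak CPM per kb of window for each gene (points) and the median of each list (lines). The cytokine loci have a median percentile of 44.0 and run from Il17f (23.8) to Tnf (96.5), while T cell and Treg markers have a median of 85.8 and genes of unrelated tissues 30.8.

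Genotype differences were tested with the edgeR quasi-likelihood test over all 97109 peaks, and a peak passed at a Benjamini-Hochberg adjusted p below 0.05 with an absolute log2 fold change above 0.5. Differences are log2 fold changes of Vps34-deficient over control, with the standard error (SE). In spleen, 5 of 34 peaks fell and 0 rose (14.7%, against 1.46% of all peaks called in either direction and 1.02% called lower). In lung, 8 of 34 fell and 0 rose (23.5%, against 4.96% in either direction and 3.74% lower). DESeq2 gave the same counts, and 8 peaks in spleen and 13 in lung had an unadjusted p below 0.05 (23.5% and 38.2%, against 14.3% and 20.3% of all peaks). The peaks that fell in spleen lay at Il17a, Ifng (2 peaks), Il2 and the 3′ part of Rad50. Those that fell in lung lay at Il17a (2 peaks), Rad50 (2 peaks), Il5, the Il13–Il4 spacer, Il21 and Il2, and 3 peaks fell in both tissues. The median log2 fold change of the 34 peaks was -0.04 in spleen and -0.56 in lung, against 0.05 and 0.02 over all peaks. In lung 33 of 34 values were negative, against 48.2% of all peaks, and in spleen 20 of 34 were, against 43.5%. Vps34-deficient and control libraries did not overlap at 11 of 34 peaks in spleen and at 19 in lung, where all peaks gave 26.1% and 45.8%.

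The calls rest on few libraries. In spleen 3 peaks passed without spleen control replicate 1, 1 without spleen control replicate 2 and 3 without Vps34-deficient replicate 4. In lung 3 passed without lung control replicate 2, 2 without Vps34-deficient replicate 1 and 5 without Vps34-deficient replicate 2. Since bulk Tregs were profiled, fewer cells of a Treg subset and less accessibility per cell cannot be told apart.

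**Figure D3:**
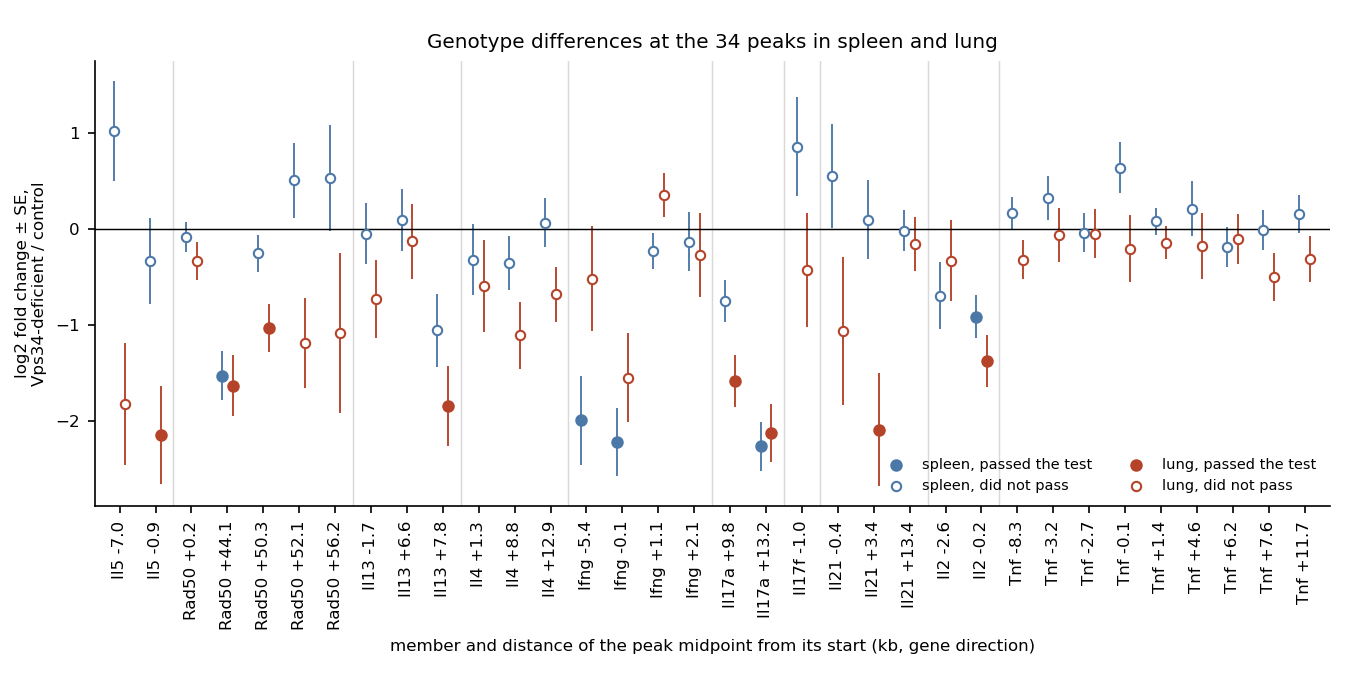
Log2 fold change (± SE) of Vps34-deficient over control at each of the 34 peaks in spleen (n = 2 control, 4 Vps34-deficient) and lung (n = 2 and 2). Filled points passed the test, which are 5 in spleen and 8 in lung, all below 0. The Tnf window on the right has none.

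The type 2 cluster held 13 peaks over Il5, Rad50, Il13 and Il4. Of these, 1 fell in spleen and 4 fell in lung (7.69% and 30.8%, against 1.46% and 4.96% of all peaks called). Rad50 encodes a subunit of the MRN complex, which repairs DNA breaks in every cell, and the peak over its start (chr11:53706602-53707598, first exon) had 15.6 and 14.5 CPM in spleen controls, 12.0 to 15.5 in Vps34-deficient spleen, 12.1 and 12.6 in lung controls and 10.7 and 9.10 in Vps34-deficient lung. Its log2 fold changes were -0.08 (SE 0.16, adjusted p = 0.879) in spleen and -0.33 (SE 0.20, adjusted p = 0.359) in lung.

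An intron peak 44.1 kb into Rad50 (chr11:53662844-53663612) differed in both tissues. It had 5.88 and 8.27 CPM in spleen controls and 2.23, 2.69, 1.9 and 3.01 CPM in Vps34-deficient spleen. Lung controls had 7.87 and 10.2 CPM and Vps34-deficient lung 2.60 and 3.39 CPM. All 6 Vps34-deficient libraries lay below all 4 controls. On the log2 scale the genotype difference was -1.53 (SE 0.25, edgeR adjusted p = 0.00141) in spleen and -1.63 (SE 0.32, adjusted p = 0.00275) in lung. Leaving out spleen control replicate 2 gave -1.30 in spleen (adjusted p = 0.0789). For lung, leaving out control replicate 2 gave -1.38 (0.0573) and leaving out Vps34-deficient replicate 1 gave -1.37 (0.0690). None of these 3 passed.

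The neighbouring intron peak 50.3 kb into the gene (chr11:53656696-53657253) was the most accessible of the Rad50 introns. It had 10.9 and 14.5 CPM in spleen controls and 10.7, 11.0, 9.75 and 10.9 CPM in Vps34-deficient spleen, so the groups overlapped. Lung controls had 10.8 and 14.5 CPM, against 5.04 and 7.83 CPM in Vps34-deficient lung. These are log2 fold changes of -0.25 (SE 0.19, edgeR adjusted p = 0.618) in spleen and -1.03 (SE 0.25, adjusted p = 0.0142) in lung. The lung value did not pass without lung control replicate 2 (-0.75) or without Vps34-deficient replicate 1 (-0.65). It did not pass either when the lung libraries were fitted alone. The remaining 2 intron peaks, 52.1 and 56.2 kb into Rad50, had at most 3.67 CPM in any library and passed in neither tissue.

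The Il13–Il4 spacer held 2 peaks. IL-13 drives mucus and alternative macrophage responses and IL-4 drives type 2 differentiation and IgE. The peak 8.22 kb upstream of Il4 (chr11:53626710-53627075) had 1.69 and 2.76 CPM in spleen controls and 0.835, 1.71, 0.903 and 0.718 CPM in Vps34-deficient spleen. Lung controls had 5.63 and 10.2 CPM and Vps34-deficient lung 2.19 and 2.33 CPM. The lung controls stood above every other library. In log2 terms the difference was -1.06 (SE 0.38, edgeR adjusted p = 0.170) in spleen, where 1 library overlapped, and -1.84 (SE 0.41, adjusted p = 0.00875) in lung. The lung value did not pass without lung control replicate 2 (-1.30, adjusted p = 0.223), without Vps34-deficient replicate 1 (-1.72, 0.0954) or without Vps34-deficient replicate 2 (-1.80, 0.0655). The peak 9.41 kb upstream of Il4 (chr11:53627913-53628252), with 2.13 to 6.35 CPM over all libraries, had log2 fold changes of 0.09 (SE 0.32) in spleen and -0.13 (SE 0.39) in lung.

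Of the peaks in Il4, none passed for genotype. The intron peak at chr11:53605315-53606196 had 4.99 and 5.79 CPM in spleen controls and 5.42, 3.67, 8.03 and 5.17 CPM in Vps34-deficient spleen. It had 8.93 and 12.3 CPM in lung controls and 7.15 and 6.35 CPM in Vps34-deficient lung. Genotype differences on the log2 scale were 0.07 (SE 0.25) in spleen and -0.68 (SE 0.29, edgeR adjusted p = 0.182) in lung. The peak at an untranslated exon of a transcript of Il4 (chr11:53609642-53610046) had -0.35 (SE 0.28) and -1.10 (SE 0.35, adjusted p = 0.0669), and that at the internal start (chr11:53617223-53617565) -0.32 (SE 0.37) and -0.60 (SE 0.48). The peak 1.71 kb upstream of Il13 (chr11:53636104-53636728) had -0.05 (SE 0.32) in spleen and -0.73 (SE 0.41) in lung.

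IL-5 is the growth and survival factor of eosinophils. The peak 743 bp upstream of Il5 (chr11:53719725-53720051) had 1.60 and 0.827 CPM in spleen controls and 0.835, 0.856, 0.722 and 1.58 CPM in Vps34-deficient spleen. Lung controls had 4.04 and 6.07 CPM and Vps34-deficient lung 1.62 and 0.635 CPM, so that here too the lung controls stood alone. As log2 fold changes these differences were -0.34 (SE 0.45) in spleen and -2.14 (SE 0.51, edgeR adjusted p = 0.0137) in lung. The lung value did not pass without lung control replicate 2 (-1.77, adjusted p = 0.174) or Vps34-deficient replicate 2 (-1.59, 0.151). A second peak between Rad50 and Il5, 6.97 kb upstream of Il5 (chr11:53713684-53713967), had 0.413 to 2.54 CPM in all libraries. Its log2 fold changes were 1.02 (SE 0.52, adjusted p = 0.381) in spleen and -1.82 (SE 0.63, adjusted p = 0.0991) in lung.

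**Figure D4:**
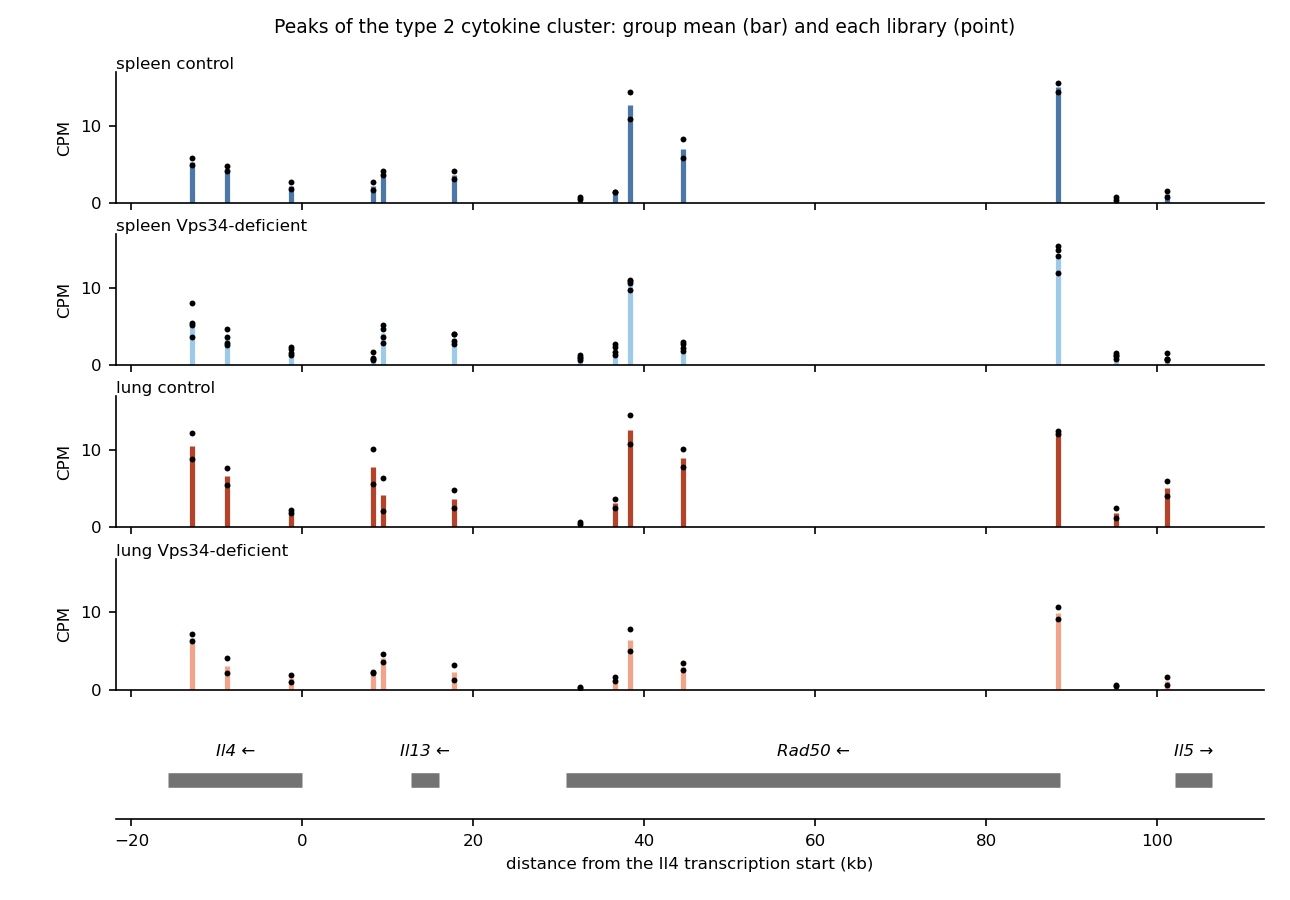
The type 2 cytokine cluster in kb from the Il4 start, with bars for the group mean and points for each library in CPM (top 4 panels) and the gene bodies below, arrows giving the direction of transcription. The Rad50 start peak has 9.10 to 15.6 CPM in all libraries, whereas the spacer peak 8.22 kb from the Il4 start is highest in lung controls (5.63 and 10.2 CPM).

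Ifng encodes the defining type 1 cytokine. Its start lies in a peak (chr10:118440731-118441098) with 4.37 and 7.30 CPM in spleen controls and 1.11, 1.22, 0.722 and 2.01 CPM in Vps34-deficient spleen. Lung controls had 4.47 and 4.37 CPM and Vps34-deficient lung 2.11 and 0.847 CPM. The genotypes did not overlap in either tissue. The values for genotype were log2 fold changes of -2.22 (SE 0.36, edgeR adjusted p = 0.000986) in spleen and -1.55 (SE 0.46, adjusted p = 0.0514) in lung, just outside the threshold. Leaving out spleen control replicate 2 gave -1.84 (adjusted p = 0.0809), which did not pass.

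The region 5.38 kb upstream of Ifng (chr10:118435429-118435897) fell in spleen. Spleen controls had 2.41 and 2.62 CPM, and the 4 Vps34-deficient libraries had 0.974, 0.979, 0.181 and 0.431 CPM. Lung controls had 3.19 and 2.12 CPM and Vps34-deficient lung 1.62 and 2.12 CPM, which overlapped. On the log2 scale the genotype difference was -1.99 (SE 0.47, edgeR adjusted p = 0.0283) in spleen and -0.52 (SE 0.55, adjusted p = 0.634) in lung. The spleen value did not pass without spleen control replicate 1 (-2.11, adjusted p = 0.169), spleen control replicate 2 (-1.96, 0.166) or Vps34-deficient replicate 4 (-1.87, 0.0895). The first intron of Ifng held the most accessible peak of the locus (chr10:118441945-118442352), at 6.17 to 9.31 CPM in all 10 libraries. Its log2 fold changes were -0.23 (SE 0.19, adjusted p = 0.647) in spleen and 0.35 (SE 0.23, adjusted p = 0.407) in lung. In spleen this intron peak, centred 1.10 kb downstream of the start, was also lower without overlap. Controls had 8.24 and 9.09 CPM and Vps34-deficient libraries 7.23, 7.46, 7.76 and 7.03 CPM. The start and the upstream region of Ifng thus passed in spleen while the intron did not, and the peaks were not tested against each other.

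Il17a had no peak at its start or in its body, and both of its peaks lay downstream of the gene. The repeat region 13.2 kb downstream of the start (chr1:20743771-20744345) had the smallest adjusted p of the 34 peaks in both tissues. It had 19.7 CPM in both spleen controls and 5.01, 4.40, 2.89 and 4.31 CPM in Vps34-deficient spleen. Lung controls had 41.3 and 49.5 CPM and Vps34-deficient lung 5.20 and 16.5 CPM. No Vps34-deficient library reached any control. These are log2 fold changes of -2.26 (SE 0.25, edgeR adjusted p = 1.31e-05) in spleen, a 4.79-fold lower level, and -2.12 (SE 0.30, adjusted p = 0.000121) in lung. Both calls were made without each library in turn, with values of -2.40 to -2.14 in spleen and -3.07 to -1.41 in lung.

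The second region of Il17a, 9.81 kb downstream of its start (chr1:20740421-20741010), is not repetitive. It had 13.1 and 12.0 CPM in spleen controls and 8.49, 5.50, 8.03 and 7.75 CPM in Vps34-deficient spleen. Lung controls had 19.8 and 27.9 CPM and Vps34-deficient lung 5.36 and 11.2 CPM. The order of the groups was the same as at the repeat, with no overlap between the genotypes in either tissue. In log2 terms the difference was -1.58 (SE 0.27, edgeR adjusted p = 0.000835) in lung and -0.75 (SE 0.22, adjusted p = 0.0885) in spleen. The lung value was -1.04 without Vps34-deficient replicate 1, where the adjusted p of 0.0529 missed the threshold. Il17f, which encodes a close relative of IL-17A, had a single peak 906 bp from an annotated start (chr1:20791523-20791784) at 0.689 to 2.54 CPM. Its log2 fold changes were 0.85 (SE 0.52) in spleen and -0.43 (SE 0.59) in lung, and neither passed.

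**Figure D5:**
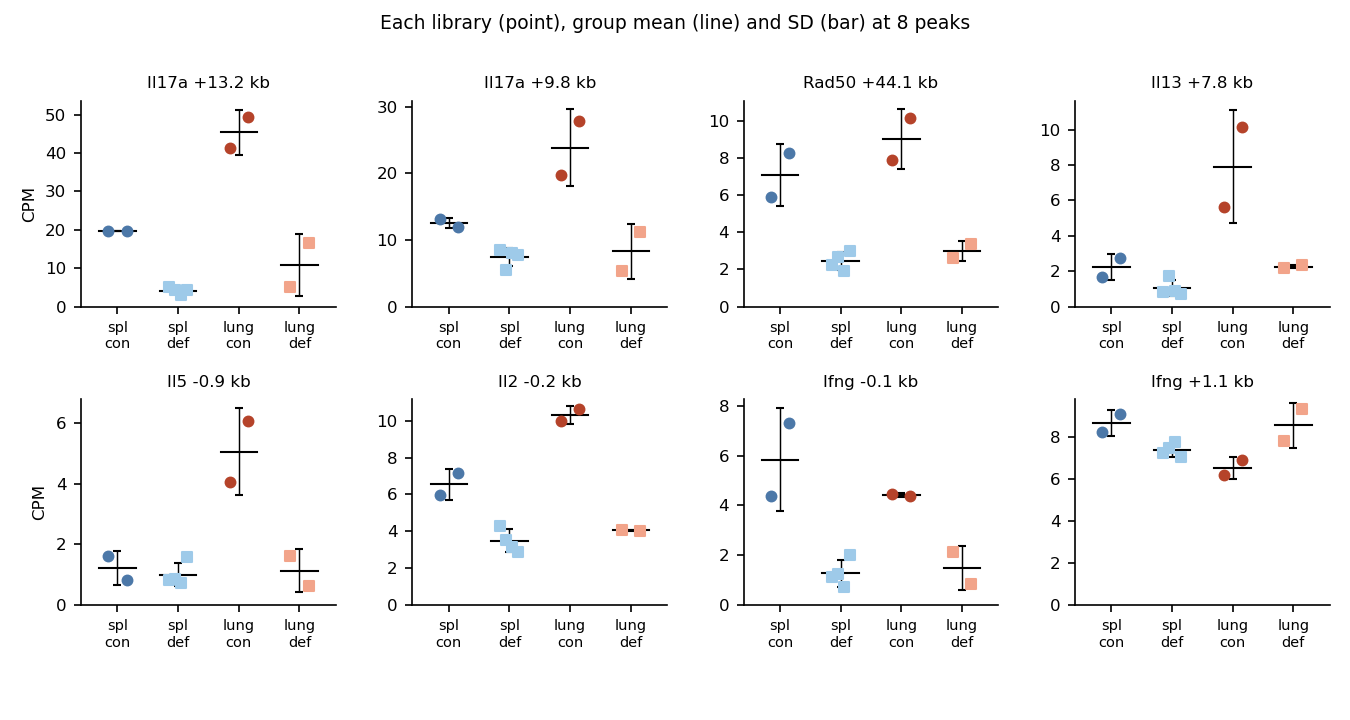
CPM of each library (points), with group mean and SD, at 8 peaks named by member and distance from its start in kb (spl, spleen; con, control; def, Vps34-deficient; Il13 +7.8 is the spacer peak upstream of Il4). Vps34-deficient libraries lie below controls in both tissues at Il17a +13.2 (2.89 to 16.5 against 19.7 to 49.5 CPM), whereas the Ifng +1.1 peak has 6.17 to 9.31 CPM in all groups.

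Il2 fell in both tissues at its start (chr3:37125705-37126559). The peak had 5.97 and 7.16 CPM in spleen controls and 4.31, 3.55, 3.16 and 2.87 CPM in Vps34-deficient spleen. Lung controls had 9.99 and 10.7 CPM and Vps34-deficient lung 4.06 and 4.02 CPM, so the genotypes did not overlap in either tissue. Genotype differences on the log2 scale were -0.91 (SE 0.22, edgeR adjusted p = 0.0352) in spleen and -1.38 (SE 0.27, adjusted p = 0.00334) in lung. The spleen value did not pass without spleen control replicate 1 (-1.10, adjusted p = 0.118) or 2 (-0.81, 0.258), nor without Vps34-deficient replicate 2 (-0.97, 0.0625), 3 (-0.90, 0.0512) or 4 (-0.84, 0.103). The lung value did not pass without Vps34-deficient replicate 1 (-1.31, 0.0510).

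Il21 had 3 peaks. The intron peak (chr3:37229016-37229409) had 1.5 and 1.7 CPM in spleen controls, 1.1 to 2.4 in Vps34-deficient spleen, 1.9 and 2.0 in lung controls and 0.49 and 0.42 CPM in Vps34-deficient lung. As log2 fold changes these differences were 0.10 (SE 0.41) in spleen and -2.09 (SE 0.59, edgeR adjusted p = 0.0373) in lung. Leaving out spleen control replicate 1 (-2.05) or 2 (-2.01), lung control replicate 1 (-2.01) or 2 (-2.02), or Vps34-deficient lung replicate 1 (-2.13) or 2 (-1.93) ended this call. So did halving the counts, fitting the lung libraries alone and using the replicate number as a block. The peak 379 bp upstream of the Il21 start by its midpoint had 0 counts in Vps34-deficient lung replicate 2, which allows up to 0.635 CPM (3 fragments of 2 counts each, since both mates appear to have been counted, and for counting error only), and at most 2.64 CPM elsewhere. The most accessible Il21 peak (chr3:37219074-37219445), beyond the 3′ end of the gene, had 4.02 to 7.13 CPM and log2 fold changes of -0.02 (SE 0.21) in spleen and -0.16 (SE 0.28) in lung.

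The Tnf window was open in all groups and 0 of its 9 peaks passed for genotype in either tissue by edgeR or by DESeq2. By edgeR 1.46% of all peaks passed in spleen and 4.96% in lung, so 0 of 9 does not set this window apart from all peaks. At an unadjusted p below 0.05 there was 1 peak of this window in spleen (11.1%, against 14.3% of all peaks) and 0 in lung (against 20.3%). The peak in a coding exon of Tnf (chr17:35200429-35200860) was the most accessible of all 34, with 24.5 and 27.5 CPM in spleen controls and 23.2, 30.2, 28.7 and 27.4 CPM in Vps34-deficient spleen. Lung controls had 22.5 and 32.2 CPM and Vps34-deficient lung 27.4 and 23.3 CPM, so the groups overlapped. Its log2 fold changes were 0.08 (SE 0.14, edgeR adjusted p = 0.870) in spleen and -0.14 (SE 0.17, adjusted p = 0.679) in lung. The peak over the Tnf start (chr17:35201973-35202226) had 1.91 to 5.87 CPM, with 0.64 (SE 0.27, adjusted p = 0.255) in spleen and -0.20 (SE 0.35, adjusted p = 0.786) in lung.

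Lung and spleen were compared within each genotype. In controls, 7 of 34 peaks were higher in lung and 0 lower (20.6%, against 15.4% of all peaks in either direction and 11.8% higher), a share close to the background. These were both Il17a peaks, both Il5 peaks, the Il4 intron peak, the Il13–Il4 spacer peak and the Il2 start. The log2 fold change of lung over spleen was 1.28 (SE 0.28, edgeR adjusted p = 0.00271) at the Il17a repeat, 2.11 (SE 0.48, adjusted p = 0.00415) at Il5 and 1.94 (SE 0.40, adjusted p = 0.00171) at the spacer. The call at the repeat was not made by DESeq2 or without spleen control replicate 1, that at Il5 not without spleen control replicate 2 or lung control replicate 2, and that at the spacer not without spleen control replicate 1 or lung control replicate 2. DESeq2 called 4 higher and 0 lower, and 9 peaks had an unadjusted p below 0.05 (26.5%, against 29.2% of all peaks). The number passing was 1 without spleen control replicate 1, 2 without spleen control replicate 2 and, without lung control replicate 2, 3 peaks (1 higher and 2 lower). The calls at the Il2 start and at the peak between Rad50 and Il5 were made under 2 and 1 of 9 other settings. In Vps34-deficient Tregs 3 peaks were higher in lung and 3 lower (17.6%, against 17.2% of all peaks). The higher ones were the Il17a repeat, the region upstream of Ifng and the spacer, and the lower ones the Tnf start, the Il21 intron and the Rad50 intron 50.3 kb into the gene. The call at the spacer was made under 4 of 9 other settings. The number passing was 2 without Vps34-deficient spleen replicate 4, 3 without Vps34-deficient lung replicate 1 and 1 without Vps34-deficient lung replicate 2.

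The genotype effect was not shown to differ between the tissues at any of these loci. The interaction, that is the lung effect minus the spleen effect, passed at 0 of 34 peaks by edgeR, as at 0 of all 97109 (0%), and DESeq2 called 0 of the 34 and, of all peaks, 1 higher and 11 lower. At an unadjusted p below 0.05 there were 6 of 34 (17.6%) and 7060 of all (7.27%). The smallest adjusted p among the 34 was 0.420, at the peak between Rad50 and Il5, where the interaction was -2.84 (SE 0.82). The median interaction of the 34 peaks was -0.47, against -0.08 over all peaks.

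Genes around these cytokines were counted in the same windows. Receptors of the members (Il4ra, Ifngr1, Il2ra and 10 others) had 108 tested peaks, of which 0 passed in spleen by edgeR or DESeq2 (15, or 13.9%, had an unadjusted p below 0.05) and 2 rose and 5 fell in lung (6.48%), a share near the 4.96% of all peaks. Regulators (Gata3, Tbx21, Batf and 10 others), which include the factors that specify helper lineages, had 208 tested peaks. Of these 0 rose and 5 fell in spleen and 2 rose and 14 fell in lung. These are 2.40% and 7.69% of their peaks, against 1.46% and 4.96% of all peaks. In spleen 33 (15.9%, against 14.3% of all peaks) had an unadjusted p below 0.05, and DESeq2 called 1 higher and 5 lower. Other T cell cytokines had 53 tested peaks, including 2 genes (Lta and Ltb) whose windows share peaks with that of Tnf. Of these 0 rose and 3 fell in spleen and 1 rose and 5 fell in lung, which are 5.66% and 11.3%. In spleen 12 (22.6%, against 14.3% of all peaks) had an unadjusted p below 0.05, and DESeq2 called 0 higher and 4 lower. The median log2 fold change in lung was -0.09 for receptors, -0.19 for regulators and -0.23 for the other cytokines, against -0.56 for the cytokine loci and 0.02 for all peaks. For markers of other cells it was -0.62 (myeloid, 10 peaks), -0.30 (B cell, 13), -0.01 (lung epithelium and endothelium, 13), 0.38 (mast cell and basophil, 4) and 0.50 (CD8 and NK, 10). It was -0.03 for genes of unrelated tissues. A fall of this size was thus not particular to the cytokine loci.

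Markers of other cells were summed in each library, although the sort on CD4, Foxp3-YFP and TCRb should remove most such cells. Myeloid markers had 77.3 to 83.9 CPM in spleen controls, 77.3 to 83.2 in Vps34-deficient spleen, 88.7 to 95.3 in lung controls and 70.2 to 71.3 in Vps34-deficient lung, with no peak at Lyz2. CD8 and NK cell markers had 54.2 to 60.5, 63.4 to 71.0, 66.7 to 75.1 and 87.1 to 88.5 CPM in the same order, with no peak at Ncr1. In lung the summed levels of the genotypes did not overlap, with myeloid markers lower and CD8 and NK markers higher in Vps34-deficient Tregs, and CD8 and NK markers were higher without overlap in Vps34-deficient spleen too. Most of each sum came from a single gene. In lung, Cd14 had 68.5 and 72.8 CPM in controls and 59.3 and 58.0 in Vps34-deficient Tregs, and Klrb1c 57.4 and 51.6 against 62.5 and 59.7. Of the others there, Csf1r overlapped, Itgam was lower and Cd8a and Cd8b1 were higher without overlap. Genes of unrelated tissues had 163 to 180 CPM in all libraries. Of the mast cell and basophil markers, 3 of 4 (Mcpt4, Fcer1a, Mcpt8) had no peak, and the peaks of Cpa3 had 34.9 to 40.8 CPM in spleen controls, 27.3 to 38.0 in Vps34-deficient spleen, 18.8 to 21.9 in lung controls and 24.7 to 26.0 in Vps34-deficient lung. The Cpa3 values of the genotypes did not overlap in lung. B cell markers, with no peak at Ms4a1, had 114 to 122 CPM in spleen controls, 107 to 126 in Vps34-deficient spleen, 108 to 114 in lung controls and 93.8 to 101 in Vps34-deficient lung, so that they were lower without overlap in Vps34-deficient lung. Most of the B cell sum came from Cd79a, with 86.5 and 89.2 CPM in lung controls and 82.1 and 77.3 in Vps34-deficient lung. Lung epithelial and endothelial markers had 61.2 to 71.8 CPM in spleen libraries and 75.6 to 84.5 CPM in lung libraries. The part of these lists in the cytokine differences was not tested.

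The genes whose summed log2 CPM followed the Il17a and Il4 loci most closely over the 10 libraries were found among 15612 genes, as a description. For Il17a these were Htr2a (r = 0.99), Cfap61 (0.99) and Cpped1 (0.98), and for Il4 they were Park7 (0.99), Vdr (0.98) and Trim46 (0.98). The 10 libraries share 4 groups, so high values are reached by any gene with the same group levels. Vdr encodes the vitamin D receptor and Htr2a a serotonin receptor.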

How the data were processed

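ATAC-seq was performed on Tregs in 10 libraries. Per the labels, adapters were cut with cutadapt 1.9, Picard 1.65, SAMtools and bedtools were used, and regions were called with MACS2 2.1.0.20150603 on GRCm38. By the study's methods, a region had to appear in 50% or more of a group's replicates, and regions overlapping by 100 bp were merged. The authors deposited 1 table of counts per merged region and library, not normalized. Counts were even in 91.5% to 96.5% of regions per library, as when both mates of a fragment are counted, so counting errors are larger than the counts imply. The methods name another mouse build than the labels. A share of 51.2% of 21924 protein-coding starts of the GRCm38 annotation lay in a peak, against 2.82% and 2.67% after shifts of 100 kb, so GRCm38 was used.

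Peaks were joined to genes in Python 3.11.15. A total of 97109 peaks that passed the edgeR count filter were fitted with edgeR 4.0.16 (R 4.3.3, TMM factors, quasi-likelihood test, 1 mean per group, all 10 libraries), with Benjamini-Hochberg adjustment over all of them. Levels are CPM of the library total. For each member the peak with the highest mean, the peaks within 1 kb of its start and all peaks called in any comparison were named, as was each peak of the type 2 cluster. Members and lists were chosen with earlier results of these data known. Genes most like a locus were ranked by Pearson's r of summed log2(CPM + 0.5) among genes with at least 5 CPM, for Il4 and Il17a. Some items are not reported here. Alternatives were other scalings, filters, thresholds, windows, halved counts, a replicate block, a chromosome Y covariate, separate fits, DESeq2 1.42.0 and leaving out each library. Replicates differed by a chi-square of 2.77 to 5.37 per degree of freedom (1.38 to 2.69 on halved counts), so each library was counted as 1 sample. No column of the table (0) was left unused.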

Additional observations from a re-analysis of the deposited data

Results flagged for a closer look

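At the peak 743 bp upstream of Il5, the highest of the 4 Vps34-deficient spleen libraries (1.58 CPM) stood far from the other 3. At the peak beyond the 3′ end of Il21 (chr3:37219074-37219445) the lowest of these 4 libraries (5.17 CPM) stood apart, as did the lowest (1.18 CPM) at the weaker Il2 peak (chr3:37128376-37128646). By chance about 1 in 20 groups of 4 holds such a library.

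At 3 peaks a difference without overlap between libraries had opposite signs in spleen and lung, or in controls and Vps34-deficient Tregs. How many of all peaks show this was not counted. Genotypes alone did not overlap at 26.1% of all peaks in spleen and 45.8% in lung, so these 3 peaks are not shown to be unusual. In the first intron of Ifng the genotype effect was negative in spleen and positive in lung, and the tissue effect was negative in controls and positive in Vps34-deficient Tregs. The interaction was 0.58 on the log2 scale (edgeR adjusted p = 0.708). At the peak between Rad50 and Il5 (chr11:53713684-53713967) both effects had the opposite signs, with an interaction of -2.84 (edgeR adjusted p = 0.420). In the Il21 intron (chr3:37229016-37229409) the tissue effect was positive in controls and negative in Vps34-deficient Tregs, with an interaction of -2.19 (edgeR adjusted p = 0.470). None of the 3 passed the interaction test.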

How the results depend on the processing

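Of 34 peaks, 5 fell in spleen, against 3 with a window of 5 kb (28 peaks), 6 called with a window of 50 kb (104 peaks, 1 higher and 5 lower) and 1 to 6 when single libraries were left out. In lung 8 fell, against 11 called with a window of 50 kb (1 higher and 10 lower) and 2 to 9 when single libraries were left out. In controls 7 differed between tissues, against 4 with DESeq2, 4 with a window of 5 kb, 12 with a window of 50 kb (10 higher and 2 lower) and 1 to 6 when single libraries were left out. In Vps34-deficient Tregs 6 differed, against 13 with a window of 50 kb (8 higher and 5 lower) and 1 to 8 when single libraries were left out. The count for the interaction was 0 under each alternative. Leaving out the 9 peaks of the Tnf window, an alternative chosen after seeing the data, gave 5, 8, 7 and 5. The median level of distal peaks (9.40 CPM per kb) was 16.3 with the highest library in place of the mean. The level per kb of window (0.741) was 1.11 with 50 kb on each side, 1.12 with the highest library and 0.425 without the Tnf window, which was also chosen after seeing the data. Where a cause is not part of the alternative itself, it was not tested.

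Same-numbered libraries did not deviate together (r of their deviations from -0.0978 to 0.0633), so the numbers gave no pairing. With the replicate number as a block, 3 peaks passed in spleen, 7 in lung, 5 between tissues in controls, 1 between tissues in Vps34-deficient Tregs and 0 for the interaction. Genotype calls that were not made with the block were the Ifng upstream region in spleen (-1.34, edgeR adjusted p = 0.299), the Il2 start in spleen (-0.72, 0.325) and the Il21 intron in lung (-2.10).

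The 26 called differences kept their sign under 9 alternative settings and each of 10 left-out libraries, and lost the call in 104 of these cases. Only differences that had not passed changed sign. The Il4 intron in spleen was -0.23 with the replicate block and -0.22 to 0.19 when single libraries were left out. The range over left-out libraries was -0.73 to 0.19 at Il5 in spleen, -1.04 to 0.66 at Il17f in lung, -0.56 to 0.96 at the peak 9.41 kb upstream of Il4 in lung and -0.26 to 0.19 at the Tnf coding exon in lung.

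With 2 libraries in 3 of the 4 groups and at most 701 counts per peak and library, small differences at weak peaks were not detectable. A peak that missed the threshold is not shown to be the same in both groups.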
